A study of Mus musculus with 20 samples.

Results

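Lysyl hydroxylase 1 (LH1), the product of *Plod1*, was deleted throughout the body in mice, and the abdominal aortas of knockout and wild-type (WT) mice were compared by RNA-seq after infusion of angiotensin II (Ang II). The comparison takes 10 of the 20 libraries of the study: 5 from *Plod1-/-* mice given Ang II and 5 from WT mice given Ang II, chosen by their genotype and treatment labels. Both genotypes were labelled C57BL/6 (C57Bl/6NCrl in the study's methods) and 6 months old, and both received Ang II at 1000 ng/kg per minute from osmotic pumps placed under the skin, with the aorta taken on day 14. The other 10 libraries, 5 per genotype, came from mice infused with saline, and they serve here to show the genotype difference without Ang II. The knockout is constitutive, so the aortas had developed without LH1, and no cell type was targeted. The mice of a group are numbered 1 to 5, and the labels name no pairing by number.

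LH1 hydroxylates lysines in the helical part of procollagen chains inside the endoplasmic reticulum. The hydroxylysines carry sugars and later take part in the crosslinks that lysyl oxidases start outside the cell, and loss of LH1 in people causes the kyphoscoliotic form of Ehlers-Danlos syndrome, in which arteries can rupture. Ang II infusion in mice raises blood pressure and can lead to medial tears, intramural bleeding, leukocyte entry and adventitial fibrosis in the aorta.

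The label of the knockout was met in every library. *Plod1* RNA was at 0.0284 FPKM (a level in sequenced fragments, scaled for the length of the transcript and the size of the library) in *Plod1-/-* mouse 1 and at 0 in mice 2 to 5, against 29.7, 23.1, 22.8, 24.4 and 25.05 FPKM in WT mice 1 to 5. Genes that mark the aortic wall were present in all 10 libraries. The contractile gene *Acta2* lay between 1901 and 14456 FPKM, and the smooth muscle myosin gene *Myh11* between 166 and 1180 FPKM. Of the endothelial genes, *Pecam1* (log2 fold change −0.58), *Cdh5* (−0.28) and *Vwf* (−0.66) did not pass the test of the genotype difference, and neither did the adventitial fibroblast genes *Pdgfra* (0.51) and *Dpt* (−0.14), although in the whole list of fibroblast and adventitial genes 2 of 20 were called higher and 3 lower.

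On the genes called higher, a library of each genotype stood apart from the other 4. In *Plod1-/-* mouse 1 the median of the genes called higher lay 0.80 above the WT mean on the log2 scale, against 1.38 to 1.98 in the other *Plod1-/-* mice (the median of the genes called lower was −1.60, within the −1.64 to −0.87 of the others), mitochondrially encoded genes held 21.1% of the FPKM against 9.23% to 13.1% in the other *Plod1-/-* mice, and *Xist*, the RNA of the inactive X chromosome, was at 7.93 FPKM although the study describes male mice. In the WT Ang II mice the mitochondrial share was 14.6% to 29.1%, and *Xist* was at 15.1 FPKM in *Plod1-/-* saline mouse 5 as well. In WT mouse 1 the median of the genes called higher lay 0.54 above the WT mean on the log2 scale, and in the other WT mice between −0.24 and −0.06. On the genes called lower it was WT mouse 4 that lay apart. Its median was −0.83, against −0.28 to 0.41 in the other WT mice and −0.87 in *Plod1-/-* mouse 2. WT mouse 4 also had the lowest mitochondrial share of the WT Ang II mice, 14.6%. Without it 1458 genes were called, 891 higher and 567 lower. Counts are also given without *Plod1-/-* mouse 1 and WT mouse 1, termed the libraries that stood apart. These were picked in part by the called genes of this same comparison. On the genes called higher each lay nearest the other genotype. A rise in counts without them is thus in part built into the choice and adds no support. Samples within a genotype correlated over genes with r of 0.896 to 0.973 (*Plod1-/-*) and 0.915 to 0.986 (WT), and samples of different genotype with r of 0.814 to 0.953.

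The question was which genes differed between aortas with and without LH1 once both had been exposed to Ang II. Of 43422 genes in the files, 12356 reached 1 FPKM in at least 5 of the 10 mice and were tested by limma after a log2(FPKM + 1) transform, on which changes of low genes come out smaller than they are. A gene is termed called when its adjusted p was below 0.05 and its mean difference was above 1 in size on this log2 scale. There were 1373 called genes, 11.1% of those tested, 920 higher in *Plod1-/-* mice (7.45%) and 453 lower (3.67%). With both libraries that stood apart left out, the count was 1839, with 1300 higher and 539 lower, and 1271 of the 1373 were among them. The values of the 5 *Plod1-/-* and the 5 WT mice did not overlap for 1862 genes (15.1%), 1291 higher and 571 lower, and 603 of these were called. The median difference over all tested genes was 0.12. Quantile scaling moved it to −0.03 and gave 744 higher and 612 lower. Among the called genes 46 lay above 3 and 12 below −3. The filter can let a gene in through its high group alone: 43 of the 920 had no WT mouse at 1 FPKM, and 6 of the 453 had no *Plod1-/-* mouse there. For such genes the direction and the lack of overlap follow from the filter.

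**Figure D1:**
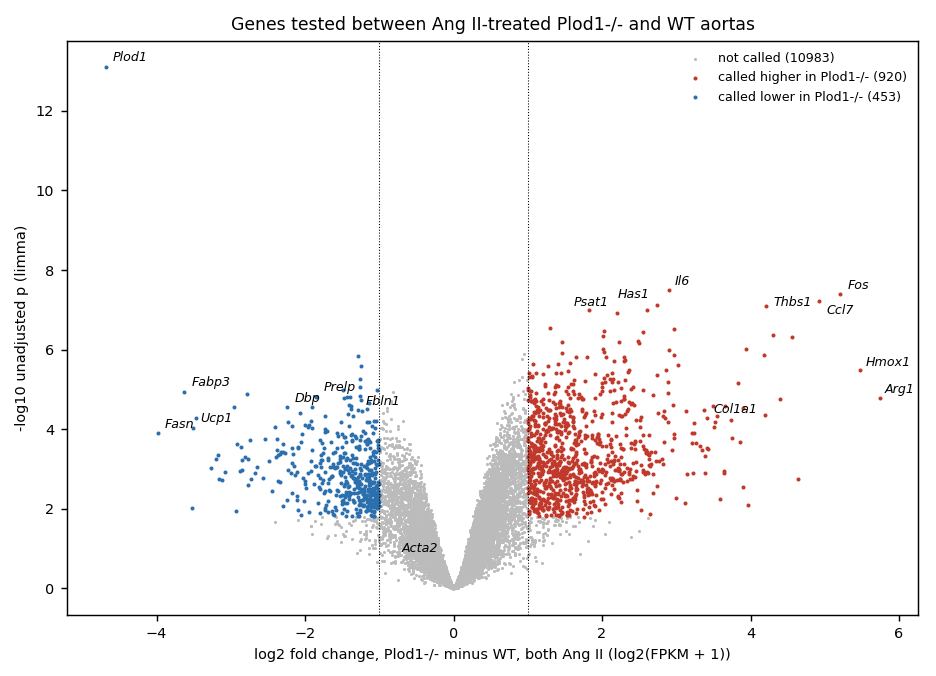
Each point is 1 of the 12356 genes tested in the Ang II mice, with the log2 fold change (*Plod1-/-* minus WT, log2(FPKM + 1)) on the x axis and −log10 of the unadjusted limma p on the y axis. Red points are the 920 genes called higher and blue points the 453 called lower, and dotted lines mark a log2 fold change of −1 and 1. *Plod1* sits alone at the top left, and the labelled genes on the right include *Fos*, *Il6*, *Thbs1* and *Has1*.

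Spread between mice was wider in the group where a gene was high. For genes called higher, the median SD on the log2 scale was 0.675 in *Plod1-/-* and 0.424 in WT mice, and for genes called lower it was 0.507 and 0.638. Over all tested genes it was 0.277 and 0.264. Of the 41 tested genes whose midpoint lay within 2 Mb of that of *Plod1* on chromosome 4, 4 were called (*Srm*, *Pik3cd*, *2510039O18Rik* and *Cenps*), a share near the 11.1% of all genes. Protein-coding genes made up 1267 of the calls, 11.4% of the 11140 tested. The library kit does not keep strand, so reads of a gene and of a partner that overlaps it on the opposite strand cannot be told apart. Of the genes named below, *Plod3* has such a partner in *Znhit1*, *Ptx3* in *Veph1*, *Kdelr3* in *Ddx17*, *Ncf1* in *Gtf2ird2*, *Omd* in *Cenpp*, *S100b* in *Dip2a*, *Fabp3* in *Zcchc17*, *Ppib* in *Snx22*, *Timp3* in *Syn3*, *Timp4* in *Syn2*, *Tln1* in *Creb3*, *Vcl* in *Ap3m1*, *Thbs3* in *Mtx1*, *Mafk* in *Tmem184a*, *Bak1* in *Ggnbp1*, *Alas2* in *Apex2*, *Ccnd1* in *LTO1*, *Fn1* in *Apol7d*, *Agpat2* in *Egfl7*, *Nt5dc2* in *Stab1* and *Smim5* in *Recql5*, and a few are given with their gene. Opposite-strand gene models that carry only a systematic or antisense name overlap *Ace*, *Acta1*, *Adam19*, *Adam8*, *Alox5ap*, *Apaf1*, *Bcl2*, *C7*, *Ccl2*, *Ccnd2*, *Cd44*, *Cdh5*, *Cdkn1a*, *Col12a1*, *Col5a1*, *Col5a3*, *Crtap*, *Cyba*, *Dpt*, *Dusp5*, *Eln*, *Elovl6*, *Fbn1*, *Ftl1*, *Gpd1*, *H19*, *Hif1a*, *Icam1*, *Igf2*, *Il1b*, *Il1r2*, *Islr*, *Lmod1*, *Loxl2*, *Mertk*, *Mlkl*, *Mrvi1*, *Pdgfra*, *Pi16*, *Plk1*, *Plod2*, *Pparg*, *Prelp*, *Psat1*, *Smtn*, *Thbs1*, *Tnc*, *Vcam1* and *Vcan*.

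The genes with the smallest p-values after *Plod1* included genes of acute activation. Immediate early transcription factors are made within minutes of a stimulus from mRNAs that decay fast. Of the 28 on the list, 27 were tested, 16 were called higher and 0 lower, with a median difference of 1.54 against 0.12 over all genes. In 16 of the 27 the 2 genotypes did not overlap (15.1% of all genes). *Fos*, a subunit of the AP-1 factor, was at 99.5, 378, 401, 220.4 and 195 FPKM in *Plod1-/-* mice 1 to 5 and at 8.94, 5.29, 4.64, 6.92 and 2.41 FPKM in WT mice (log2 fold change 5.21, SE 0.39, limma adjusted p = 0.000154). Every *Plod1-/-* aorta had over 10 times the *Fos* of the highest WT aorta. *Egr1*, a zinc finger factor induced by growth factors and stretch, stood at 69.6, 117, 117, 66.0 and 83.1 FPKM in knockouts and 12.97, 10.4, 15.8, 18.8 and 11.8 FPKM in WT mice (log2 fold change 2.60, SE 0.21, limma adjusted p = 0.000154). The lowest knockout was again far above the highest WT mouse. *Junb*, a partner of Fos that overlaps *Prdx2* on the other strand, was at 80.5, 315, 302, 197 and 272 against 61.5, 27.7, 17.1, 11.1 and 19.996 FPKM (log2 fold change 3.13, SE 0.47, limma adjusted p = 0.00199), and *Myc*, a driver of growth and ribosome production, at 20.1, 27.2, 22.3, 27.7 and 26.03 against 10.1, 2.72, 2.97, 3.01 and 3.47 FPKM (log2 fold change 2.37, SE 0.28, limma adjusted p = 0.000885). For both, WT mouse 1 was the highest of its group and still below every knockout. *Klf4* (0.26), *Maff* (−0.24), *Arc* (−0.46) and *Mafk* (−0.56) did not pass the test. Without the 2 libraries that stood apart, 16 of the list were called higher.

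In the saline mice the same genes were not low in WT aortas. *Fos* was at 17.9, 6.399, 33.6, 226 and 123 FPKM in *Plod1-/-* and at 229.9, 235, 206, 358 and 87.5 FPKM in WT saline mice (difference −2.27, limma adjusted p = 0.107). *Egr1* was at 31.1, 29.4, 41.5, 113 and 77.5 FPKM in *Plod1-/-* and at 611, 156, 141, 218 and 81.9 FPKM in WT saline mice (difference −1.88, limma adjusted p = 0.0554). All 5 WT mice given Ang II had less *Fos* and *Egr1* than any WT mouse given saline. For *Fos* the genotype difference under Ang II exceeded that under saline by 7.48 on the log2 scale (limma interaction, adjusted p = 3.91e-05), and for *Egr1* by 4.48 (adjusted p = 5.25e-05, limma). The median of the list was −0.82 under saline. How long each aorta waited between removal and freezing is not in the labels, and its part in these values was not tested.

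The 250 bases before the annotated start are shown for 3 genes of the acute group that the results turn on, each from another role: *Fos* (transcription factor), *Il6* (cytokine) and *Has1* (matrix synthesis). They come from RefSeq on GRCm38.p6, the same assembly as the mm10 build named in the submitters' processing notes, and are written 5′ to 3′ in the direction of the gene. Capitals mark matches to the motifs searched on both strands, namely the AP-1 site (TGACTCA or TGAGTCA), the cyclic AMP response element (TGACGTCA), TATAAA, the CArG box and the κB site.
*Fos*, chr12:85473640-85473889, plus strand: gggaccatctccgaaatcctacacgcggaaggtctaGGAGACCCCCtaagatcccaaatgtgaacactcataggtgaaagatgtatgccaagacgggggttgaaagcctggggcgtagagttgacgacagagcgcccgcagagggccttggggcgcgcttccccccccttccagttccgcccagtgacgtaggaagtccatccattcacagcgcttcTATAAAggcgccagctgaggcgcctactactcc
*Il6*, chr5:30012864-30013113, plus strand: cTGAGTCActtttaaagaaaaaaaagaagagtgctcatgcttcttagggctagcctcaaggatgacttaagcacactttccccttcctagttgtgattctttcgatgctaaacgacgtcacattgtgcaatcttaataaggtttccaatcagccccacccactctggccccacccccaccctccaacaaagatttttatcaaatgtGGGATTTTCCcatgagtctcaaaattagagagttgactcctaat
*Has1*, chr17:17855189-17855438, minus strand: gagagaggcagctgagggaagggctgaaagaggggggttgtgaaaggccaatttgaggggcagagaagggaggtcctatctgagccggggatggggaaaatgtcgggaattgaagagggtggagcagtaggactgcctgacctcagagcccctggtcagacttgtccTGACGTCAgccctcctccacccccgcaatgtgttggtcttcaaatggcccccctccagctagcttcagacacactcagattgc
In *Fos* the capitals are a κB match at −214 to −205 and TATAAA at −33 to −28, in *Il6* an AP-1 site at −249 to −243 and a κB match at −44 to −35, and in *Has1* a cyclic AMP response element at −83 to −76, counted from the start.

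Of the genes with a promoter entry, 8991 tested genes gave 11460 promoters of 250 bases, 653 genes called higher gave 807 and 328 genes called lower gave 429. The AP-1 site occurred in 5.95% of the promoters of genes called higher, 3.03% of those called lower, 3.28% of those tested and 4.46% of all 32851 promoters in the table. The κB site occurred in 11.3%, 9.09%, 9.16% and 7.25% in the same order, TATAAA in 10.2%, 6.06%, 6.52% and 12.4%, the CArG box in 1.98%, 1.4%, 1.24% and 1.47%, and the cyclic AMP response element in 2.11%, 2.1%, 2.52% and 1.55%. These shares are descriptions of letters in a window and were not tested.

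**Figure D2:**
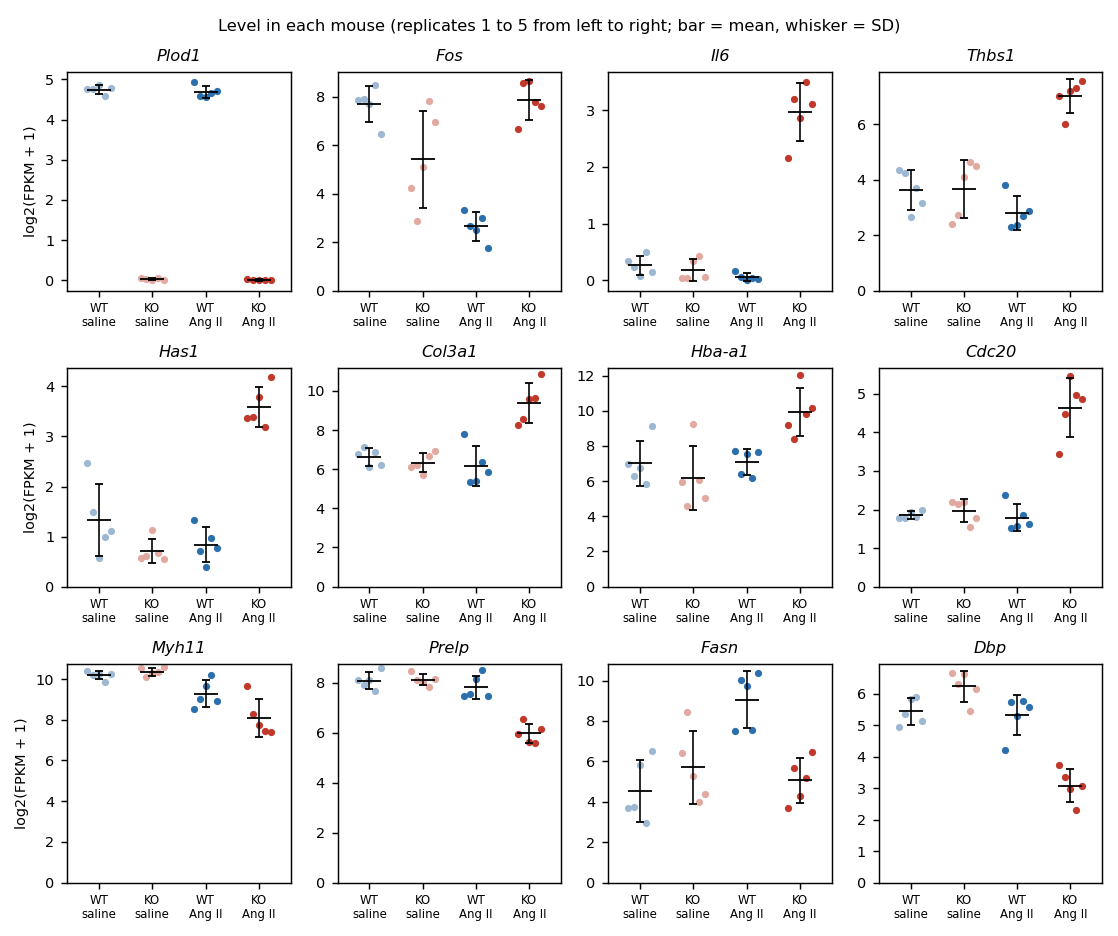
Levels of 12 genes, log2(FPKM + 1), in each of the 20 mice, grouped as WT saline, *Plod1-/-* saline, WT Ang II and *Plod1-/-* Ang II. A point is 1 mouse, the bar is the group mean and the whisker 1 SD. *Fos*, *Il6*, *Thbs1* and *Has1* are higher in every *Plod1-/-* Ang II mouse than in any WT Ang II mouse, *Prelp* and *Dbp* are lower in every one, and *Myh11* overlaps between the genotypes. For *Il6* the lack of overlap follows from the filter.

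Cytokines and their feedback genes were among the largest differences. *Il6*, which acts on leukocytes and the vessel wall through gp130, was at 3.44, 8.20, 6.27, 10.3 and 7.64 FPKM in *Plod1-/-* mice and at 0.121, 0.0438, 0, 0.0287 and 0.0167 FPKM in WT mice (log2 fold change 2.91, SE 0.21, limma adjusted p = 0.000154). No WT mouse reached 1 FPKM. *Il11*, another ligand of gp130, was at 4.87, 1.22, 2.40, 3.53 and 1.25 against 0.238, 0.282, 0.134, 0.121 and 0.181 FPKM (log2 fold change 1.51, SE 0.25, limma adjusted p = 0.00297). No WT mouse reached 1 FPKM of it either, so for *Il6* and *Il11* the direction and the lack of overlap follow from the filter. *Osm*, oncostatin M, differed by 2.82, and *Lif*, which was below the filter, averaged 3.99 against 0.231 FPKM (exact permutation p = 0.00794, the smallest that 5 against 5 mice can give, adjusted p = 0.0545 over 309 genes). *Socs3*, the inhibitor that gp130 signalling induces through STAT3, was at 24.9, 85.3, 76.2, 78.3 and 102 FPKM in knockouts and 22.1, 2.96, 2.64, 2.15 and 5.22 FPKM in WT mice (log2 fold change 3.54, SE 0.55, limma adjusted p = 0.00223). WT mouse 1 came close to *Plod1-/-* mouse 1, and the other mice were far apart. In the whole list of the IL-6 family and its receptors 5 of 12 tested genes were called higher and 0 lower, with a median of 0.63, and 3 of them had no WT mouse at 1 FPKM.

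Among the IL-1 and TNF families 7 of 16 tested genes were called higher and 0 lower, and all 16 differences were positive. *Il1b*, the inflammasome-processed cytokine, was at 6.03, 14.9, 59.1, 33.9 and 22.4 FPKM in knockouts and 1.26, 0.279, 0.161, 0.366 and 2.80 FPKM in WT mice (log2 fold change 3.65, SE 0.53, limma adjusted p = 0.00181). *Il1r2*, a decoy receptor that binds IL-1 without signalling, was at 9.07, 26.6, 35.8, 39.7 and 27.2 against 4.84, 0.428, 0.423, 0.164 and 0.467 FPKM (log2 fold change 3.83, SE 0.48, limma adjusted p = 0.00111). In both genes the lowest knockout was mouse 1, and it remained above all WT mice. *Nlrp3*, a sensor of the inflammasome, was below the filter at a mean of 3.16 against 0.406 FPKM. Members of the NF-κB family and its feedback inhibitors were called higher in 5 of 19 tested genes, with a median of 0.73.

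Most chemokine genes were called higher. Of 11 tested CXC and other chemokines 8 were called higher and 0 lower (median 2.36, 9 called higher without both libraries that stood apart), but 2 of the 11 had no WT mouse at 1 FPKM. Of 13 tested CC chemokines 9 were called higher and 2 lower (median 2.05). *Cxcl2*, a neutrophil attractant, was at 6.73, 41.6, 108, 46.2 and 20.99 FPKM in knockouts and 0.908, 0.0686, 0.130, 0.202 and 2.27 FPKM in WT mice (log2 fold change 4.39, SE 0.61, limma adjusted p = 0.00155). *Cxcl5*, a second ligand of CXCR2, was at 3.98, 9.26, 12.6, 12.01 and 6.59 against 0.712, 0, 0.0412, 0.131 and 0.152 FPKM (log2 fold change 2.97, SE 0.27, limma adjusted p = 0.000337). *Pf4*, a chemokine stored in platelets and also made by macrophages, was at 115, 629, 829, 789 and 243 against 71.0, 22.7, 16.8, 22.6 and 21.05 FPKM (log2 fold change 3.90, SE 0.57, limma adjusted p = 0.00184). *Cxcl2* and *Pf4* did not overlap between the genotypes. No WT mouse reached 1 FPKM of *Cxcl5*, so its direction and lack of overlap follow from the filter. *Plod1-/-* mouse 3 was the highest in all 3. *Ccl3*, a macrophage inflammatory protein, and *Ccl12*, a monocyte attractant, differed by 3.21 and 2.84. The eosinophil attractant *Ccl11* lay the other way, at 5.79, 6.73, 9.96, 6.77 and 6.33 FPKM in knockouts and 6.91, 16.5, 15.05, 19.005 and 24.5 FPKM in WT mice (log2 fold change −1.02, SE 0.28, limma adjusted p = 0.0191), and its call was lost in 5 of the 10 fits that left out 1 mouse because the difference fell under the size limit (to −0.86 without WT mouse 5). *Cxcl12*, which holds CXCR4-bearing cells in tissue, missed the threshold at 0.89 (limma adjusted p = 0.0372), and *Cx3cl1* and *Cxcl13* did so at −0.26 and −0.27.

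Macrophage and neutrophil genes were higher in the knockouts, and in bulk tissue more cells of a type and more RNA per cell cannot be told apart. Of 19 tested macrophage core genes 18 were called higher and 0 lower, with a median of 2.37, yet in 0 of them did the genotypes separate fully. The summed level of the list was 1444, 4816, 7959, 7077 and 3839.7 FPKM in *Plod1-/-* mice 1 to 5 and 2774, 726, 499.6, 495 and 746 FPKM in WT mice 1 to 5. WT mouse 1 was inside the knockout range and *Plod1-/-* mouse 1 was the lowest knockout. *Lyz2*, lysozyme, shows it in 1 gene, at 501, 1551, 2908, 3102 and 1399.5 against 1009, 218, 149.5, 150.5 and 224 FPKM (log2 fold change 2.62, SE 0.61, limma adjusted p = 0.0105). *Ctss*, the elastin-cleaving cathepsin S (3.41), and *Tyrobp*, an adaptor of activating receptors (3.21), were among the largest differences in the list, while *Mertk*, the efferocytosis receptor, was at 0.28 and did not pass.

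Genes linked to macrophages in injured tissue were called higher in 17 of 24 (none lower, median 1.97). *Clec4n*, a lectin receptor, was at 17.3, 37.1, 111, 89.9 and 57.1 FPKM in knockouts and 3.71, 1.87, 1.595, 0.908 and 2.08 FPKM in WT mice (log2 fold change 4.19, SE 0.45, limma adjusted p = 0.000585). *Trem2*, a lipid-sensing receptor, was at 6.03, 27.6, 52.2, 34.2 and 18.1 against 3.90, 0.904, 0.606, 0.613 and 1.51 FPKM (log2 fold change 3.37, SE 0.50, limma adjusted p = 0.00197). *Gpnmb* (0.95), *Nos2* (0.13) and *Saa3* (0.05) did not pass the test. Of the genes of resident adventitial macrophages 4 of 13 were called higher, *Mrc1* (2.04) and *Clec10a* (1.95) among them, whereas the hyaluronan receptor *Lyve1* (−0.02) and *Cbr2* (−0.47) were not.

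Neutrophil genes were called higher in 8 of 10 (none lower, median 2.55). *Cxcr2*, the receptor for *Cxcl2* and *Cxcl5*, was at 1.48, 6.81, 14.9, 15.6 and 7.99 FPKM in *Plod1-/-* and 1.32, 0.186, 0.164, 0.114 and 0.412 FPKM in WT mice (log2 fold change 2.63, SE 0.46, limma adjusted p = 0.00378), and *Csf3r*, the G-CSF receptor, differed by 3.39. WT mouse 1 lay close to *Plod1-/-* mouse 1 for *Cxcr2*. The genes of granule formation in marrow stayed below the filter, with means of 0.449 and 0.477 FPKM for *Elane*, 0.201 and 0.118 FPKM for *Mpo*, and 0.556 and 4.02 FPKM for *Ngp* in *Plod1-/-* and WT mice. Other leukocyte lists had fewer calls: 3 of 10 MHC class II and dendritic genes and 1 of 7 mast cell genes were called higher, and 0 of 6 B and plasma cell genes were called in either direction (median −0.42). Of the phagocyte NADPH oxidase, which makes superoxide, the subunits *Ncf1* (2.42), *Ncf4* (2.44), *Cyba* (1.32) and the GTPase *Rac2* (2.40) were called higher. The mitochondrial superoxide dismutase gene *Sod2* was called lower (−1.13, limma adjusted p = 0.0388), a call lost in 7 of the 10 fits that left out 1 mouse (adjusted p up to 0.0926, limma, without WT mouse 2).

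Red cell RNA was higher as well. All 5 tested red cell genes were called higher (7.45% of all genes), with a median of 2.61. The summed level of the list was 1606, 765, 9720, 2395 and 3058 FPKM in *Plod1-/-* mice and 667, 222, 524, 185 and 511 FPKM in WT mice. Single saline mice reached the lower part of the knockout range, with 1524 FPKM in *Plod1-/-* saline mouse 3 and 1444 FPKM in WT saline mouse 5. The other saline mice lay between 60.2 and 331 FPKM. *Hba-a1*, an alpha globin, was at 579.6, 331, 4256, 895 and 1131 FPKM in knockouts and 206, 83.4, 187, 70.3 and 203 FPKM in WT mice (log2 fold change 2.82, SE 0.61, limma adjusted p = 0.00821). *Plod1-/-* mouse 3 had by far the most, and the lowest knockout was above the highest WT mouse. The alpha and beta globin genes are near-identical pairs, so the split of reads within a pair is uncertain, and *Hba-a2* and *Hbb-bs* differed by 2.59 and 2.61. *Alas2*, the erythroid enzyme of heme synthesis, was called at 2.04 in the full set and lost that call in 6 of the 10 fits without 1 mouse (adjusted p up to 0.0756, limma, without WT mouse 2). Genes that handle heme and iron went with it in part, 5 of 23 called higher and 0 lower. *Hmox1*, which opens the heme ring, was at 218, 1385, 1391, 1516 and 602 FPKM against 73.9, 11.7, 10.99, 12.4 and 13.6 FPKM (log2 fold change 5.47, SE 0.64, limma adjusted p = 0.000885). *Slc40a1*, ferroportin, the iron exporter, was at 1.23, 9.30, 16.1, 11.6 and 7.35 against 0.749, 0.638, 0.597, 0.383 and 0.674 FPKM (log2 fold change 2.39, SE 0.44, limma adjusted p = 0.00467), with *Plod1-/-* mouse 1 far below the other 4 knockouts. *Slc11a1*, a phagosomal metal transporter, and *Ftl1*, ferritin light chain, differed by 2.30 and 1.62, and ferritin heavy chain *Fth1* by −0.14 without passing. With both libraries that stood apart left out, 12 of the 23 were called higher.

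Genes of clotting and of fibrin removal were called higher in 9 of 21 and lower in 1. *Plau*, urokinase, was at 24.1, 8.22, 23.4, 21.6 and 16.8 FPKM in *Plod1-/-* and 3.52, 2.83, 3.10, 2.50 and 4.68 FPKM in WT mice (log2 fold change 2.13, SE 0.27, limma adjusted p = 0.00109), and its receptor *Plaur* at 82.6, 26.03, 58.1, 50.4 and 29.3 against 12.4, 5.14, 4.36, 7.11 and 7.27 FPKM (log2 fold change 2.56, SE 0.34, limma adjusted p = 0.00134). The enzyme and its receptor thus both lay higher with no overlap, and each was highest in *Plod1-/-* mouse 1, a library that stood apart. That mouse had the lowest summed macrophage level of the knockouts, and a relation to that level was not tested. *F7*, coagulation factor VII, differed by 2.25 and *Tfpi2*, a serine protease inhibitor, by 1.98.

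**Figure D3:**
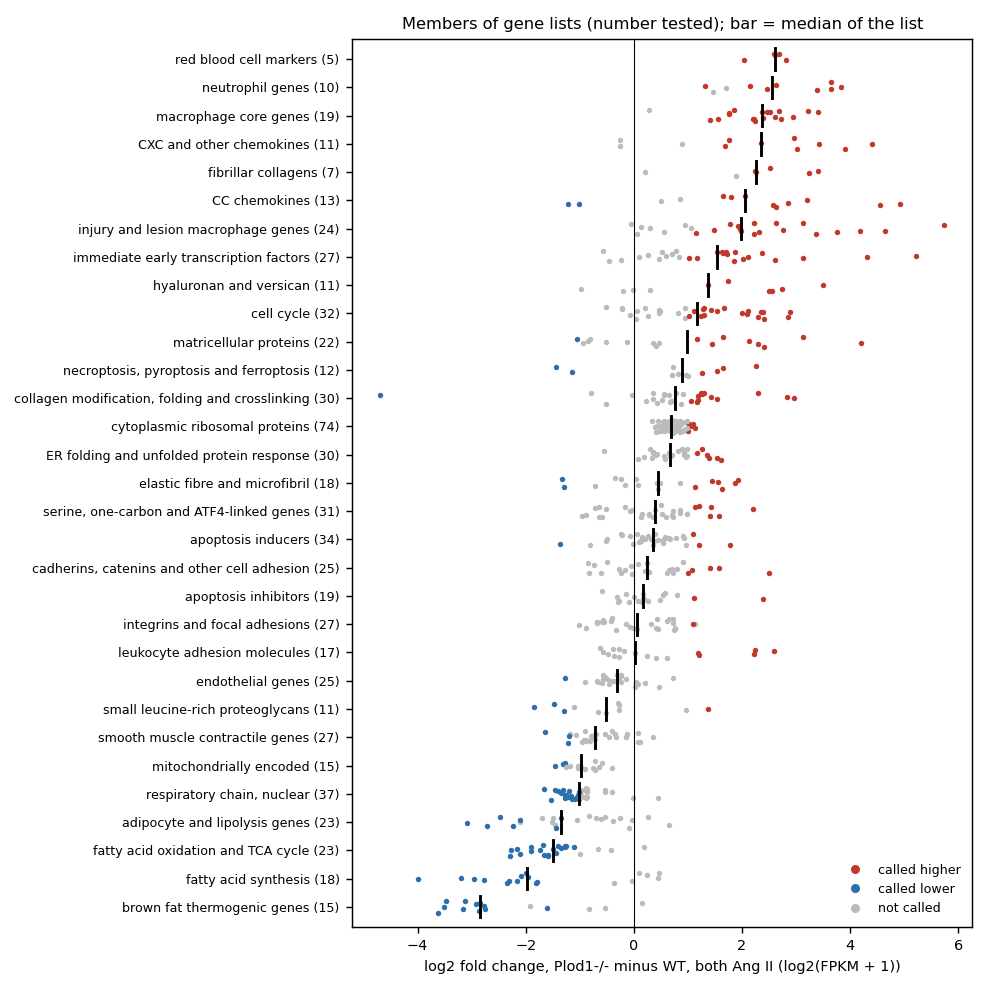
Log2 fold change (*Plod1-/-* minus WT under Ang II, log2(FPKM + 1)) of the tested members of 31 gene lists on the x axis, a row for each list. A point is 1 gene and the bar is the list's median, so the red cell, neutrophil and macrophage lists lie to the right with medians above 2 and the brown fat and fatty acid synthesis lists to the left.

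Genes of the collagen fibril itself were higher. Of 11 fibrillar collagen genes 7 were tested, and 5 were called higher and 0 lower (median 2.25, −0.20 under saline). *Col3a1*, the collagen of distensible tissues, was at 307, 379, 769, 803 and 1893 FPKM in *Plod1-/-* mice and 220.1, 39.8, 41.4, 82.0 and 57.5 FPKM in WT mice (log2 fold change 3.23, SE 0.56, limma adjusted p = 0.00355). *Plod1-/-* mouse 5 had the most, and WT mouse 1 lay nearest to the knockouts. *Col1a2* (2.25), *Col5a1* (2.25) and *Col5a2* (2.52), the last 2 being chains of the collagen that nucleates fibrils, were called too, and *Col5a3* (1.88, limma adjusted p = 0.0742) was not. *Col11a1* was below the filter at a mean of 3.54 against 0.0450 FPKM. Of the other collagens 5 of 15 were called higher. *Col12a1*, which sits on fibril surfaces, was at 2.88, 6.56, 7.49, 16.1 and 36.2 against 0.999, 0.787, 0.827, 0.819 and 0.930 FPKM (log2 fold change 2.55, SE 0.48, limma adjusted p = 0.00499), and the basement membrane collagens *Col4a1* (0.71) and *Col4a2* (0.49), which overlap each other's opposite strand, did not pass.

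The enzymes and chaperones that modify, fold and crosslink collagen were called higher in 12 of 30 tested genes, and *Plod1* itself was the 1 called lower. *Plod2*, the lysyl hydroxylase of the telopeptides, was at 13.1, 10.3, 28.5, 17.3 and 28.99 FPKM in *Plod1-/-* mice and 8.85, 4.69, 6.44, 15.4 and 5.28 FPKM in WT mice (log2 fold change 1.18, SE 0.35, limma adjusted p = 0.026). WT mouse 4 lay within the knockout range, and the call was lost in 6 of the 10 fits without 1 mouse (adjusted p up to 0.0666, limma, without WT mouse 2). *Plod3*, which hydroxylates lysines and adds their sugars, was at 50.9, 36.3, 63.2, 44.2 and 44.8 against 34.5, 30.1, 27.8, 34.3 and 32.8 FPKM, a difference of 0.55 (SE 0.15, limma adjusted p = 0.0203) with no overlap but under the size limit. In saline mice the differences were −0.27 for *Plod2* (limma adjusted p = 0.168) and −0.17 for *Plod3* (limma adjusted p = 0.119).

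*Loxl2*, a lysyl oxidase of the crosslinking step, was at 23.02, 17.8, 31.1, 34.6 and 42.7 FPKM in knockouts and 7.33, 3.06, 4.48, 6.26 and 4.87 FPKM in WT mice (log2 fold change 2.30, SE 0.25, limma adjusted p = 0.000647). *P4ha3*, a prolyl hydroxylase subunit, was at 6.05, 4.10, 7.93, 15.4 and 26.6 against 1.68, 0.226, 0.208, 0.256 and 0.581 FPKM (log2 fold change 2.83, SE 0.43, limma adjusted p = 0.002). *Fkbp10*, a collagen chaperone that overlaps *Nt5c3b* on the other strand, was at 95.6, 56.9, 114, 92.3 and 110.1 against 36.9, 26.9996, 27.02, 36.4 and 27.6 FPKM (log2 fold change 1.54, SE 0.20, limma adjusted p = 0.00122). All 3 separated the genotypes fully. *P3h1* (1.29) and *P4hb* (1.26), which hydroxylate or fold procollagen, and the oxidases *Loxl1* (1.18) and *Loxl4* (1.43) were called. *P4ha1* (0.55), *P4ha2* (0.68), *Crtap* (0.35) and *Ppib* (0.77) were not. *Serpinh1*, the procollagen chaperone HSP47, was at 906, 321, 1089, 602 and 881 against 232, 242, 277, 421 and 344 FPKM (log2 fold change 1.24, SE 0.33, limma adjusted p = 0.0174), while its difference under saline was −1.09 (limma adjusted p = 0.00684).

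Elastic fibre genes did not move as a block: 6 of 18 were called higher and 2 lower. *Eln*, elastin, was at 252.3, 189, 691, 349.8 and 472 FPKM in *Plod1-/-* and 139.7, 81.0, 80.2, 75.7 and 119 FPKM in WT mice (log2 fold change 1.87, SE 0.34, limma adjusted p = 0.00413), with no overlap. *Fbln1*, a fibulin of elastic fibres and basement membranes, lay the other way at 30.5, 28.5, 30.2, 22.8 and 47.9 against 62.6, 83.1, 70.2, 93.3 and 79.8 FPKM (log2 fold change −1.29, SE 0.19, limma adjusted p = 0.00196), also with no overlap. It did so without Ang II too, averaging 52.7 ± 17.8 FPKM in *Plod1-/-* and 123 ± 26.7 FPKM in WT saline mice (SD, n = 5, difference −1.26, limma adjusted p = 0.02). *Fbln2* (1.93), *Fbn1*, fibrillin-1 (1.56), and *Mfap5*, a microfibril protein (1.44), were called higher, *Ltbp4*, which tethers latent TGF-β, was called lower (−1.34), and *Fbln5* (−0.72) did not pass.

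Of the matricellular proteins, which signal from the matrix rather than build it, 11 of 22 were called higher and 1 lower. In 2 of the 22 no WT mouse reached 1 FPKM. *Thbs1*, thrombospondin 1, an activator of latent TGF-β, was at 129.97, 63.2, 144, 156 and 189 FPKM against 13.1, 3.92, 4.14, 5.52 and 6.30 FPKM (log2 fold change 4.21, SE 0.34, limma adjusted p = 0.000154), and *Thbs2* at 13.5, 22.2, 24.9, 58.6 and 137 against 6.87, 4.31, 5.19, 9.65 and 4.995 FPKM (log2 fold change 2.41, SE 0.52, limma adjusted p = 0.00811). *Plod1-/-* mouse 5 was the highest for both, and no WT mouse reached the lowest knockout. *Tnc*, tenascin C, differed by 2.29 and *Postn*, periostin, by 1.65, while fibronectin *Fn1* (0.42) and *Thbs3* (0.35) did not pass.

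Small leucine-rich proteoglycans, which coat collagen fibrils and set their width, leaned the other way, with 3 of 11 called lower (3.67% of all genes) and 1 higher and a median of −0.52. *Prelp*, which anchors collagen to basement membranes, was at 60.1, 91.4, 48.2, 47.4 and 70.4 FPKM in *Plod1-/-* and 174, 188, 279, 358 and 177 FPKM in WT mice (log2 fold change −1.85, SE 0.25, limma adjusted p = 0.00152), with no overlap. *Islr* was called lower (−1.48). *Omd*, osteomodulin, was called lower (−1.30) except in 3 of the 10 fits without 1 mouse (adjusted p up to 0.0546, limma, without Plod1-/- mouse 4). Decorin *Dcn* (−0.65), biglycan *Bgn* (−0.28) and lumican *Lum* (0.97) did not pass.

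Hyaluronan genes included some of the clearest separations. *Has1*, a hyaluronan synthase, was at 9.31, 9.44, 12.7, 8.11 and 17.1 FPKM in knockouts and 1.52, 0.628, 0.312, 0.967 and 0.697 FPKM in WT mice (log2 fold change 2.75, SE 0.22, limma adjusted p = 0.000154). *Tnfaip6*, which transfers protein chains onto hyaluronan in inflamed tissue, was at 10.997, 14.6, 14.8, 11.2 and 21.5 against 3.14, 0.954, 1.01, 1.92 and 1.49 FPKM (log2 fold change 2.55, SE 0.24, limma adjusted p = 0.000337). *Cd44*, the hyaluronan receptor, was at 37.5, 14.53, 27.9, 24.9 and 24.4 against 5.66, 2.52, 2.78, 4.41 and 3.17 FPKM (log2 fold change 2.49, SE 0.25, limma adjusted p = 0.000432). *Ptx3*, which crosslinks that matrix, was at 12.3, 19.8, 11.8, 28.3 and 42.01 against 6.11, 0.265, 0.258, 0.403 and 0.543 FPKM (log2 fold change 3.49, SE 0.51, limma adjusted p = 0.00178). Synthase, receptor and both matrix partners had no knockout below any WT mouse. *Has2* was below the filter at a mean of 2.63 against 0.123 FPKM, and versican *Vcan* did not pass at 0.30. In the list as a whole 6 of 11 were called higher and 0 lower.

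Metallopeptidases and their inhibitors were called higher in 9 of 32 and lower in 2. *Adam19*, a sheddase, was at 5.67, 6.56, 10.2, 15.5 and 15.7 FPKM in *Plod1-/-* and 2.28, 1.28, 2.002, 2.26 and 1.83 FPKM in WT mice (log2 fold change 1.91, SE 0.26, limma adjusted p = 0.00155), and *Mmp14*, a membrane-bound collagenase (1.77), and *Adam12*, a sheddase of fibroblasts (1.47), were called as well. *Timp4* was called lower (−1.63), and *Timp2* (−0.51), *Timp3* (0.13) and *Mmp3* (0.06) did not pass. Of the TGF-β and BMP pathway 4 of 34 genes were called higher and 0 lower, near the 7.45% of all genes called higher. *Gdf15*, a stress-induced member of the family, was at 7.04, 11.7, 9.66, 6.81 and 4.21 against 2.17, 1.07, 0.767, 1.92 and 2.25 FPKM (log2 fold change 1.73, SE 0.26, limma adjusted p = 0.00192), and *Fstl1*, follistatin-like 1, differed by 1.55.

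Genes of cell division were called higher in 18 of 32 and none lower, with a median of 1.17 against −0.03 under saline, and in 17 the genotypes did not overlap. In 2 of the 32 no WT mouse reached 1 FPKM. *Cdc20*, an activator of the anaphase-promoting complex that overlaps *Elovl1* on the other strand, was at 9.90, 21.3, 43.4, 30.5 and 27.97 FPKM in knockouts and 4.22, 1.88, 1.95, 2.61 and 2.08 FPKM in WT mice (log2 fold change 2.86, SE 0.33, limma adjusted p = 0.000885). *Ccnb2*, a mitotic cyclin (2.89), *Cdk1*, its kinase (2.38), *Plk1*, a mitotic kinase (2.40), and *Rrm2*, which supplies deoxynucleotides (2.35), were called. *Cdkn1a*, the p21 inhibitor, did not pass (0.20), nor did the G1 cyclins *Ccnd1* (0.47) and *Ccnd2* (−0.07). *Mki67*, below the filter, averaged 4.25 against 0.217 FPKM.

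Genes for making proteins differed by less per gene and more evenly. All 74 tested cytoplasmic ribosomal protein genes had a positive difference (60.0% of all genes did), in 37 of 74 without overlap, but only 5 passed the size limit and the median was 0.69. Ribosome biogenesis genes were alike: 4 of 39 were called higher, 28 did not overlap and the median was 0.62. Mitochondrially encoded genes held a larger share of the FPKM in WT mice, as given above. Leaving them out of the scaling lowered these medians to 0.59 and 0.52 and the median over all genes to 0.03, and 767 genes were then called higher and 555 lower. Of the endoplasmic reticulum genes of folding and the unfolded protein response 6 of 30 were called higher and 14 did not overlap. *Pdia5*, a disulfide isomerase, was at 32.6, 23.1, 33.5, 27.2 and 40.3 FPKM in *Plod1-/-* and 13.1, 7.53, 8.45, 11.4 and 9.96 FPKM in WT mice (log2 fold change 1.54, SE 0.18, limma adjusted p = 0.000912), and *Kdelr3*, which returns chaperones to the endoplasmic reticulum, at 77.9, 41.8, 102, 61.7 and 86.1 against 21.1, 18.97, 17.5, 37.2 and 21.5 FPKM (log2 fold change 1.62, SE 0.26, limma adjusted p = 0.00258). Of serine, one-carbon and ATF4-linked genes 6 of 31 were called higher. *Psat1*, an enzyme of serine synthesis, was at 11.3, 8.93, 15.6, 15.1 and 11.8 against 2.89, 1.47, 1.31, 1.89 and 2.11 FPKM (log2 fold change 2.21, SE 0.18, limma adjusted p = 0.000164) with no overlap, and *Aldh18a1* (1.57) and *Pycr1* (1.13), which make the proline that collagen is rich in, were called. Of the heat shock list 0 of 21 genes were called in either direction.

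Genes of cell death were taken by type. Of 34 tested inducers of apoptosis 3 were called higher and 1 lower, shares near the 7.45% and 3.67% of all genes, and of 19 inhibitors 2 were called higher and 0 lower. *Bok*, a pore-forming relative of Bax, was at 8.51, 24.4, 30.3, 17.8 and 26.1 FPKM in *Plod1-/-* and 7.91, 6.55, 3.30, 2.54 and 6.88 FPKM in WT mice (log2 fold change 1.78, SE 0.36, limma adjusted p = 0.0062). *Cycs*, cytochrome c, which also serves the respiratory chain, was called lower at 36.6, 39.1, 33.4, 30.4 and 40.5 against 85.7, 146, 110.4, 38.6 and 134 FPKM (log2 fold change −1.36, SE 0.31, limma adjusted p = 0.01), with WT mouse 4 inside the knockout range. *Bax* (0.65), *Bak1* (0.78), *Apaf1* (0.96) and *Trp53* (0.44) did not pass. Of the inhibitors, *Mcl1* was called (1.12), and *Birc5*, survivin, which also acts in mitosis, was at 2.60, 4.96, 13.5, 8.61 and 8.61 against 1.36, 0.167, 0.316, 0.348 and 0.4996 FPKM (log2 fold change 2.39, SE 0.34, limma adjusted p = 0.00167). *Bcl2* was at 1.86, 2.11, 1.85, 2.09 and 1.61 against 3.39, 2.85, 3.14, 5.92 and 2.19 FPKM, a difference of −0.58 with no overlap that was under the size limit (limma adjusted p = 0.0344).

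Of 12 tested genes of necroptosis, pyroptosis and ferroptosis 4 were called higher and 2 lower, a larger share than of all genes. *Ripk3*, the kinase of necroptosis, was at 7.46, 13.6, 23.4, 22.7 and 20.5 FPKM in knockouts and 5.74, 2.31, 1.88, 1.22 and 3.28 FPKM in WT mice (log2 fold change 2.26, SE 0.35, limma adjusted p = 0.00223), and *Mlkl*, its membrane-rupturing substrate, differed by 1.64. *Acsl4*, which loads membranes with the lipids that ferroptosis oxidises, differed by 1.26. *Gpx4*, which repairs such lipids, was called lower (−1.14, limma adjusted p = 0.0299), a call lost in 6 of the 10 fits without 1 mouse (adjusted p up to 0.0752, limma, without WT mouse 2). Leukocytes also express *Ripk3* and *Mlkl*, and the summed macrophage level given above was likewise lowest, among knockouts, in mouse 1 and highest, among WT mice, in mouse 1. Its part was not tested.

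Cell adhesion genes were taken in 3 lists, against 7.45% of all genes called higher. Integrin and focal adhesion genes were called higher in 1 of 27 and lower in 0, with a median of 0.05 that turned negative under quantile scaling. The 1 was *Itga5*, the fibronectin receptor subunit, at 450.4, 137, 153, 195 and 108 FPKM against 102, 81.8, 83.4, 89.4 and 68.9 FPKM (log2 fold change 1.10, SE 0.33, limma adjusted p = 0.0276), highest in *Plod1-/-* mouse 1 and lost in 5 of the 10 fits without 1 mouse (adjusted p up to 0.0659, limma, without WT mouse 5). *Itgb1* (0.45), *Vcl*, vinculin (0.75), and *Tln1*, talin (−0.07), did not pass. Of the leukocyte adhesion molecules 5 of 17 were called higher, with the leukocyte-borne *Itgb2* (2.58), *Itgam* (2.25), *Selplg* (2.23) and *Itgb7* (1.20) among them. The endothelial partners *Icam1* (0.03) and *Vcam1* (0.24) were not called. Of cadherins, catenins and other adhesion genes 5 of 25 were called higher. *Cdh11*, the cadherin of fibroblasts, was at 3.36, 3.29, 5.66, 8.51 and 18.6 against 2.94, 0.761, 1.03, 2.17 and 1.27 FPKM (log2 fold change 1.57, SE 0.40, limma adjusted p = 0.0156).

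Contractile genes of smooth muscle were called lower in 3 of 27 (3.67% of all genes) and higher in 0, with a median of −0.72 and overlap between the genotypes in every one. *Myh11* was at 801, 307, 212, 171 and 166 FPKM in *Plod1-/-* and 363, 522, 811, 1179.9 and 489 FPKM in WT mice (log2 fold change −1.18, SE 0.46, limma adjusted p = 0.0712), and *Cnn1*, calponin, at 1135, 213, 328, 179 and 124 against 276, 433, 501, 797 and 415 FPKM (log2 fold change −0.70, SE 0.53, limma adjusted p = 0.332). *Plod1-/-* mouse 1 lay within the WT range for *Myh11* and above it for *Cnn1*. Knockouts 2 to 5 were all below the lowest WT mouse for *Myh11*, and 3 of these 4 were for *Cnn1*. The called genes were *Lmod1*, a filament nucleator (−1.65), *Smtn*, smoothelin (−1.20), and *Mrvi1*, a target of cyclic GMP signalling (−1.22). The calls of *Smtn* and *Mrvi1* were lost without WT mouse 3 or without *Plod1-/-* mouse 4 (adjusted p up to 0.0535 and 0.0531, limma). Without both libraries that stood apart, 17 of the 27 were called lower with a median of −1.21. *Tagln* was listed at only 12.2, 2.11, 2.99, 1.46 and 1.64 against 3.37, 4.60, 3.94, 4.84 and 4.07 FPKM, and it overlaps *Pcsk7* on the opposite strand. Endothelial genes were called lower in 1 of 25 and higher in 0 (median −0.31), the former being *Cldn5*, a tight junction gene (−1.28, lost in 7 of the 10 fits without 1 mouse, adjusted p up to 0.0786, limma, without WT mouse 5).

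**Figure D4:**
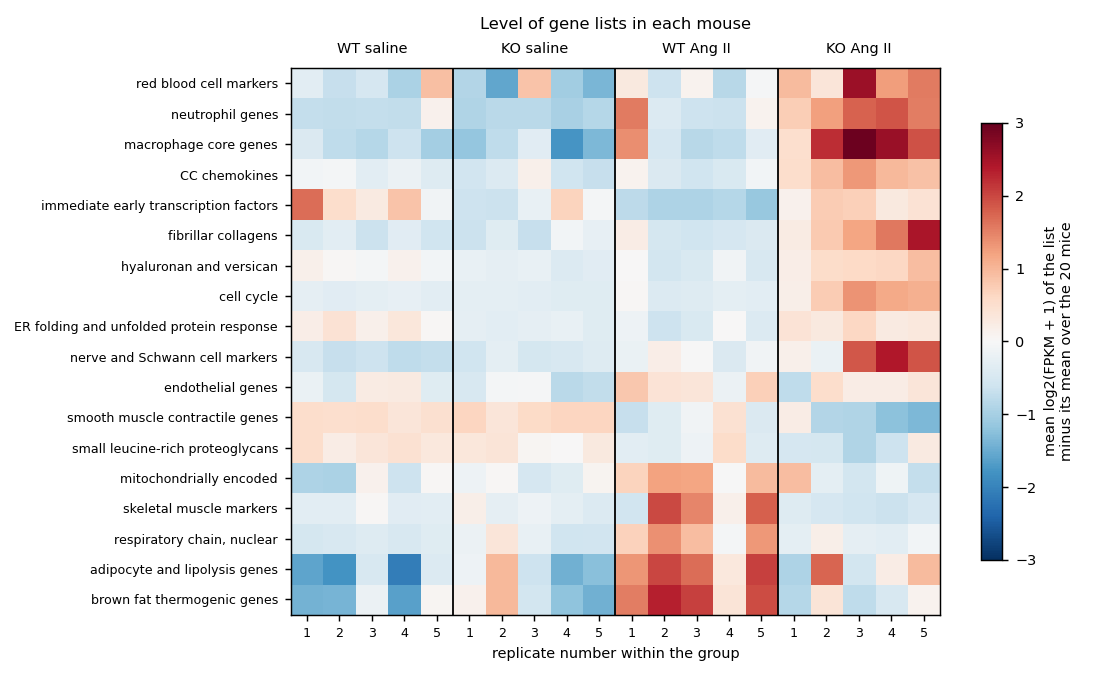
Mean log2(FPKM + 1) of each of 18 gene lists in each of the 20 mice (columns, by group), minus the list's mean over the 20 mice, on a colour scale from −3 to 3. In the *Plod1-/-* Ang II block mouse 1 is paler than mice 2 to 5 for the leukocyte lists. In the WT Ang II block mouse 1 is nearest the knockouts for those lists. For the brown fat, adipocyte, respiratory chain and mitochondrially encoded lists WT mouse 4 is nearest.

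Many of the genes called lower serve metabolism. Fatty acid oxidation and the TCA cycle had 19 of 23 called lower, fatty acid synthesis 12 of 18, brown fat thermogenic genes 11 of 15, adipocyte and lipolysis genes 7 of 23 and the nuclear genes of the respiratory chain 21 of 37, against 3.67% of all genes, and none of these lists had a gene called higher. *Elovl6*, a fatty acid elongase, was at 1.49, 3.59, 2.40, 3.30 and 5.95 FPKM in *Plod1-/-* and 25.97, 41.01, 39.1, 10.1 and 64.9 FPKM in WT mice (log2 fold change −2.96, SE 0.43, limma adjusted p = 0.00183). *Fabp3*, a fatty acid carrier of oxidative tissue, was at 24.02, 10.97, 17.7, 18.1 and 26.1 against 154, 507, 321, 74.8 and 437 FPKM (log2 fold change −3.63, SE 0.48, limma adjusted p = 0.00135), and *Ucp1*, the uncoupling protein of brown fat, at 36.6, 126, 66.5, 80.2 and 165 against 1356, 1879, 1317, 208 and 1201 FPKM (log2 fold change −3.52, SE 0.59, limma adjusted p = 0.00305). WT mouse 4 was the lowest WT mouse in each, and no knockout reached it. *Hadhb*, of beta oxidation (−2.29), *Gpd1*, which supplies glycerol 3-phosphate (−3.08), and *Dgat2*, which completes triglycerides (−2.72), were called lower, and *Pparg*, the regulator of fat cells, was not (−1.06, limma adjusted p = 0.153).

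Marker levels of attached tissue differed between mice. The summed level of the adipocyte list was 1388, 10215, 1573, 2856 and 4715 FPKM in *Plod1-/-* mice 1 to 5 and 6518, 8284, 6287, 2372 and 7757 FPKM in WT mice 1 to 5, and that of the brown fat list 211, 719, 215, 274 and 589 against 2859, 5672, 3724, 747 and 4600.4 FPKM. The adipocyte sums overlapped, with *Plod1-/-* mouse 2 the highest of all 10, and the brown fat sums did not, with WT mouse 4 just above *Plod1-/-* mouse 2. Skeletal muscle markers, which an aorta should lack, were called lower in 4 of 11, and their sum was 71.2, 111, 58.2, 31.5 and 55.6 FPKM against 109, 762, 503, 427 and 542 FPKM. *Acta1*, the skeletal actin, was at 2.60, 2.49, 0.270, 1.03 and 1.32 against 0.336, 141, 77.2, 8.30 and 111 FPKM (log2 fold change −3.53, SE 1.13, limma adjusted p = 0.0363), which was high in WT mice 2, 3 and 5 and lost its call in 6 of the 10 fits without 1 mouse (adjusted p up to 0.0901, limma, without WT mouse 3). With the adipocyte mean as a covariate, 1159 genes were called, 852 higher and 307 lower, and 884 of them were among the 1373. Brown fat genes then had a median of −1.50 and fatty acid oxidation genes −0.68. How much of these differences came from attached tissue was not tested.

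Nerve and Schwann cell genes showed a pattern of single mice. *Th*, tyrosine hydroxylase, the first enzyme of catecholamine synthesis, was at 3.53, 0.312, 52.98, 81.4 and 55.1 FPKM in *Plod1-/-* and 0.0467, 1.74, 0.731, 0.0590 and 0.120 FPKM in WT mice (log2 fold change 3.59, SE 1.04, limma adjusted p = 0.0252). *Dbh*, which makes noradrenaline, was at 3.57, 0.424, 89.7, 198 and 92.7 against 0.0547, 2.17, 1.498, 0.0518 and 0.316 FPKM (log2 fold change 3.97, SE 1.23, limma adjusted p = 0.0318). *Plod1-/-* mice 3, 4 and 5 were high in both and mouse 2 was within the WT range. Their calls were lost in 5 and 8 of the 10 fits without 1 mouse (adjusted p up to 0.0631 for *Th* without Plod1-/- mouse 3 and 0.0774 for *Dbh* without Plod1-/- mouse 3, limma). *Tubb3*, a neuronal tubulin, was at 19.8, 9.90, 101, 169 and 96.6 against 6.76, 3.42, 2.26, 0.952 and 1.78 FPKM (log2 fold change 3.86, SE 0.71, limma adjusted p = 0.00454), with no overlap. *Npy*, the cotransmitter of sympathetic nerves, was at 14.1, 6.64, 158, 439 and 77.6 against 3.64, 9.59, 4.48, 1.17 and 0.5005 FPKM (log2 fold change 3.89, SE 1.02, limma adjusted p = 0.0167), and *Gap43*, of growing axons, at 4.75, 1.70, 50.8, 69.2 and 26.3 against 0.750, 0.862, 0.857, 0.343 and 0.505 FPKM (log2 fold change 3.39, SE 0.79, limma adjusted p = 0.0105). *Npy* and *Gap43* were singled out after their values were seen. Under saline *Npy* was also called higher in *Plod1-/-* mice (1.25, limma adjusted p = 0.013), at 2.11 to 5.85 FPKM against 0.391 to 1.34 FPKM in WT mice. Its interaction was not called (2.65, limma adjusted p = 0.0661). *S100b*, the glial calcium binder that fat also expresses, was called lower (−1.64). No adrenal marker passed the filter, and the adrenal sum was 1.70, 1.33, 1.26, 1.32 and 1.28 FPKM in knockouts and 1.17, 2.27, 2.11, 3.72 and 1.77 FPKM in WT mice.

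Prostanoid and leukotriene genes were called higher in 5 of 22 and lower in 1. *Ptgs2*, the inducible cyclooxygenase, was at 29.7, 6.35, 21.4, 11.8 and 9.28 FPKM in *Plod1-/-* and 1.21, 0.651, 0.679, 1.99 and 0.627 FPKM in WT mice (log2 fold change 2.89, SE 0.36, limma adjusted p = 0.00109), with no overlap, and *Alox5ap*, which presents arachidonate to 5-lipoxygenase, differed by 2.44. *Ace*, the enzyme that forms Ang II, was at 33.4, 56.3, 27.6, 25.02 and 43.96 against 186, 91.7, 87.3, 112 and 69.2 FPKM (log2 fold change −1.50, SE 0.29, limma adjusted p = 0.00514), with every knockout below every WT mouse. In the clock list 2 of 19 genes were called lower and 1 higher. *Dbp*, an output gene of the clock that overlaps *Sphk2* on the other strand, was at 12.3, 9.15, 6.82, 3.97 and 7.37 against 17.8, 52.4, 38.7, 53.3 and 46.7 FPKM (log2 fold change −2.24, SE 0.33, limma adjusted p = 0.00183), and *Nr1d1*, a clock repressor that overlaps *Thra*, at 63.8, 35.2, 17.9, 22.2 and 33.5 against 66.6, 88.4, 126, 189 and 106 FPKM (log2 fold change −1.76, SE 0.35, limma adjusted p = 0.00614). Both genes cycle strongly over the day, and the hour at which each aorta was taken is not in the labels, so its part was not tested.

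Finally, the same genotype comparison was made in the saline mice, which share no animal with the Ang II mice. There 92 of 11999 tested genes were called (0.767%), 43 higher and 49 lower, where 11.1% were called under Ang II, and the median difference was −0.01. Leaving out WT saline mouse 2, *Plod1-/-* saline mouse 2 or *Plod1-/-* saline mouse 4 left 44, 61 and 49 calls, and leaving out *Plod1-/-* saline mouse 5, the saline mouse with *Xist* RNA, left 69. The median size of a called difference was 1.24 under saline and 1.46 under Ang II. Of 11476 genes tested in both, 1063 were called under Ang II and 86 under saline. The 28 called in both were 2.63% of the first set and 32.6% of the second, and 9 of them had the same direction. Besides *Plod1*, these included *Fbln1* and *Pi16*, a surface marker of adventitial fibroblasts, both lower in each treatment. *Pi16* was at 37.7, 59.2, 52.0, 29.9 and 49.4 against 109.8, 127, 112, 156 and 108 FPKM under Ang II (log2 fold change −1.43, SE 0.20, limma adjusted p = 0.00153) and differed by −1.13 under saline. *C7*, a complement component (−1.92 and −1.57), and *Clec3b*, tetranectin (−1.63 and −1.20), were lower in both. *Npy* was higher in both (3.89 and 1.25). Opposite directions were seen in 19, *Fosb*, *Hmox1*, *Cxcl1*, *Il33* and *Serpinh1* among them. *Il33*, an alarmin of stromal cells, was at 19.7, 27.1, 40.6, 31.4 and 53.3 against 29.6, 3.99, 5.96, 12.8 and 8.40 FPKM under Ang II (log2 fold change 1.66, SE 0.44, limma adjusted p = 0.0184, lost without WT mouse 3 at adjusted p = 0.0514, limma), and at 4.27, 6.405, 4.37, 3.91 and 4.96 FPKM in *Plod1-/-* and 10.05, 14.55, 12.1, 19.4 and 9.72 FPKM in WT mice under saline (−1.27, limma adjusted p = 0.00685).

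**Figure D5:**
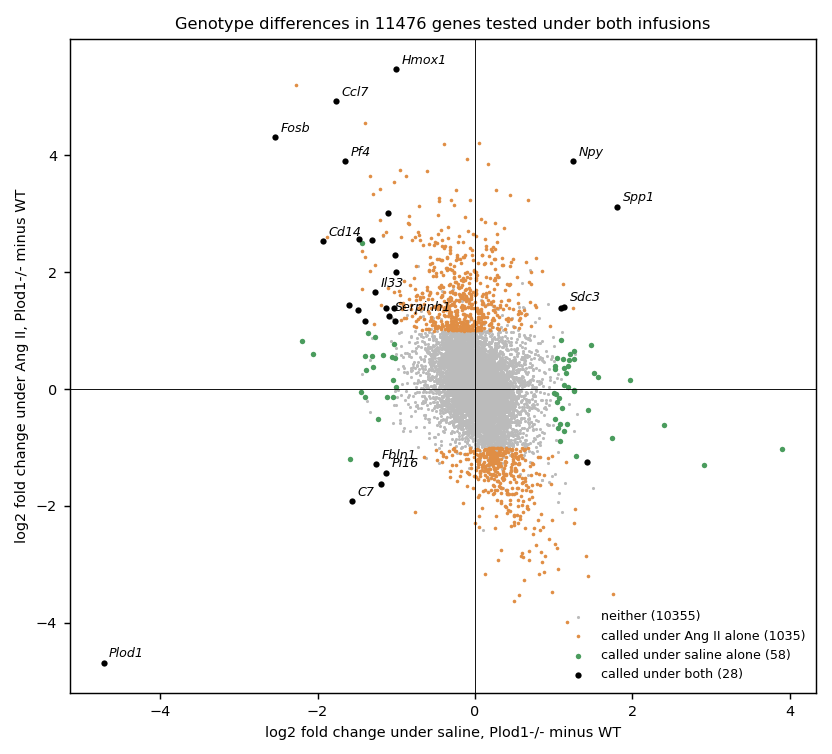
Log2 fold change (*Plod1-/-* minus WT, log2(FPKM + 1)) of 11476 genes under saline on the x axis and under Ang II on the y axis. Grey points are the 10355 genes called in neither, and coloured points the 1035 called under Ang II alone, the 58 called under saline alone and the 28 called in both, of which 19 lie in the quadrants of opposite sign.

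The test of the difference between the 2 differences, an interaction term over all 20 mice, called 2129 of 13263 genes (16.1%), 1285 with a more positive genotype difference under Ang II and 844 with a more negative one (1020 and 1095 with quantile scaling). *Has1* differed by 2.75 under Ang II, and under saline it was below the filter at 0.654 ± 0.310 FPKM in *Plod1-/-* and 1.79 ± 1.598 FPKM in WT mice (interaction 3.36, limma adjusted p = 2.04e-05). *Psat1* differed by 2.21 and −0.42 (interaction 2.63, limma adjusted p = 9.58e-06). *Elovl6* differed by −2.96 and 0.85 (interaction −3.82, limma adjusted p = 0.00194). *Plod2* differed by 1.18 and −0.27 (interaction 1.45, limma adjusted p = 0.00718). Brown fat genes had a median genotype difference of −2.85 under Ang II and 0.81 under saline, where their summed level ran from 73.0 to 1682 FPKM in *Plod1-/-* and from 81.6 to 524 FPKM in WT mice.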

How the data were processed

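Abdominal aortas of 20 mice in 4 groups (WT or *Plod1-/-*, saline or Ang II, 5 each) were sequenced from libraries made with a kit that does not keep strand. The deposited values are FPKM per gene, 1 file per mouse. The study's methods give ribosomal reads removed, alignment with HISAT2, transcripts assembled and merged with StringTie, and cuffquant and cuffnorm for normalisation. The submitters' processing notes name HISAT2 2.1.0, Bowtie2 2.2.3 and HTSeq 0.6.0 and the mm10 build, but not StringTie, cuffquant or cuffnorm. Which route gave the deposited values is not known, nor is how it treated reads that fit more than 1 gene. The total number of reads per library is unknown from FPKM, so no counting interval is given. Depth relative to the other libraries, read from the lowest values of shared genes, was 0.896 to 1.10 in the Ang II mice, and 11666 to 13192 genes reached 1 FPKM. The labels give neither the hour of removal nor how much attached tissue was left on the aorta, and the study describes male mice of another age than the labels give.

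A gene was tested if 5 or more of the mice compared had 1 FPKM or more of it, in R 4.3.3 with limma 3.58.1 on log2(FPKM + 1), with a variance trend, two-sided, and Benjamini-Hochberg adjustment over all genes tested. The study fitted a count model. FPKM are not counts, so limma was used instead, with the same limits on adjusted p (0.05) and log2 fold change (1). Genes below the filter were compared by the exact permutation test over the 252 splits of the 10 mice (smallest p 0.00794). Per-mouse values are FPKM, and differences are on the log2(FPKM + 1) scale. The p-values measure the spread between mice. The script was checked on simulated data.

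The 71 gene lists and the groups compared were chosen with earlier results of these data known, so lists are described by counts and medians with no test. Of 1590 distinct list genes, 1281 were tested and 309 were below the filter. Genes were named by rule: the 12 smallest p-values, the 15 largest increases and 15 largest decreases among called genes without overlap, up to 6 called members per direction and 3 other members by level in each list, and genes the study names, with *Plod2* and *Plod3*. The rule does not cover some further genes, most of them list members such as *Myh11*, *Serpinh1*, *Bcl2* and *Icam1*, which were chosen after their values were seen. Symbols and positions came from GENCODE mouse release 21, which matched 43285 of 43422 gene identifiers. Promoters came from RefSeq on GRCm38.p6. The alternatives tried were another pseudocount, no filter, no variance trend, quantile scaling, mice weighted by their quality, a block for the replicate number, gene-wise variances, no limit on size, mitochondrial genes left out, an adipocyte covariate, all 4 groups in 1 fit and each mouse left out. Leaving out the 2 libraries that stood apart, or those with *Xist* RNA, was added after seeing the data. A few genes are not reported here.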

Additional observations from a re-analysis of the deposited data

Results flagged for a closer look

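Single mice that lay far from the other 4 of their group were looked for in 98 sets of values, from 44 genes and 5 library measures, and 17 were found. The limit used flags about 1 in 20 sets of independent, normally distributed values. These sets were neither, and most genes were picked from these data, so the 17 are a description only. WT mouse 1 was that mouse for 12 genes: *Ccl7* at 4.78 FPKM, *Thbs1* at 13.1, *Cxcl5* at 0.712, *Arg1* at 6.78, *Hmox1* at 73.9, *Ccl2* at 4.63, *Nt5dc2* at 11.9, *Pf4* at 71.0, *Il1r2* at 4.84, *Adam8* at 6.14, *Mmp9* at 12.6 and *Mmp2* at 106 FPKM, each above the other 4 WT mice. In the same mouse the median of the genes called higher lay 0.54 above the WT mean (log2). Leaving WT mouse 1 out gave 1595 called genes. *Plod1-/-* mouse 1 stood apart in *Acta2* (14456 FPKM), in *Xist* (7.93 FPKM) and in *Plod1*, where 0.0284 FPKM faced 0 in the other 4. *H19* was at 4.49 FPKM in WT mouse 5, above the other WT mice. Mitochondrially encoded genes held 20.8% of the FPKM in WT mouse 1.

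The genotype difference under Ang II differed from that under saline, by the limma interaction term, for 40 of the 44 genes looked at. Most of these were chosen for a small p or a large change under Ang II, which is a part of the interaction, so this count is a description only (16.1% of all genes passed). On the log2 scale it was more positive under Ang II for *Fos* by 7.48, *Fosb* by 6.85, *Ccl7* by 6.69, *Hmox1* by 6.48, *Ccl2* by 5.96, *Cxcl2* by 5.71, *Pf4* by 5.55, *Arg1* by 4.59, *Clec4n* by 4.59, *Egr1* by 4.48, *Adam8* by 4.35, *Il1r2* by 4.18, *Thbs1* by 4.15, *Nt5dc2* by 4.04, *H19* by 3.89, *Tubb3* by 3.68, *Has1* by 3.36, *Mmp9* by 3.06, *Il6* by 2.99, *Cxcl5* by 2.97, *Psat1* by 2.63, *Dusp5* by 2.08, *Zfp469* by 2.05, *Mmp2* by 1.54, *Plod2* by 1.45 and *Haus7* by 1.14. It was more negative under Ang II, with an interaction of −5.27 for *Ucp1*, −5.15 for *Fasn*, −4.64 for *Thrsp*, −4.45 for *Cox7a1*, −4.13 for *Fabp3*, −3.82 for *Elovl6*, −3.62 for *Tceal6*, −3.61 for *Otop1*, −3.30 for *Inmt*, −3.23 for *Smim5*, −3.22 for *Agpat2*, −3.14 for *Slc25a42*, −3.08 for *Pank1* and −2.58 for *Fbp2*. Most of the second group are genes of fat or of oxidative metabolism, and the summed brown fat level differed between the groups as given above. Its part was not tested.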

How the results depend on the processing

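The count of 1373 called genes became 2134 with weights per mouse and 3849 with the limit on adjusted p alone, and lay between 1015 and 1609 when 1 mouse was left out. Under the other alternatives it lay between 1100 and 1839. Of the 1373, 883 were called in all 10 fits without 1 mouse and 633 in these and all 11 other alternatives tried. The saline count of 92 became 149 with a pseudocount of 0.1, 41 with no filter, 42 with gene-wise variances, 786 with adjusted p alone and 57 with all 4 groups in 1 fit, and lay between 44 and 107 when 1 mouse was left out. The interaction count of 2129 became 5017 with adjusted p alone and lay between 1895 and 2418 when 1 mouse was left out. The adipocyte covariate lowered this count to 1564, of which 1267 were among the 2129. Negative interaction calls then fell from 844 to 474, and positive ones from 1285 to 1090. Weighting the mice by quality raised the count to 2871, and the smaller pseudocount raised it to 2770. The remaining alternatives gave 1990 to 2358. No called gene with a small p or large change, and no called gene that the study names, changed sign. Genes not called were not labelled for a change of sign. Medians of lists moved by more than the spread between mice in 72 cases and by less in 1467. *Mmp9* (2.48) was not called with no filter, the replicate block or the adipocyte covariate (limma adjusted p = 0.0566, 0.0614 and 0.0556). Besides the fits without 1 mouse, *Plod2* was not called with no filter, gene-wise variances or the adipocyte covariate (limma adjusted p = 0.0732, 0.0585 and 0.172). *Acta2* was called lower without *Plod1-/-* mouse 1 (−1.22, limma adjusted p = 0.0406) and *Mmp2* higher without WT mouse 1 (1.17, limma adjusted p = 0.0358), both also with weights per mouse and without both libraries that stood apart, and *Acta2* with the adipocyte covariate. The cause of these changes was not tested.

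Same-numbered *Plod1-/-* and WT mice deviated together with r of −0.372 to 0.267, and 1 of 5 mice correlated best with its own number. No pairing by number was seen, though so few mice cannot exclude one. With the replicate block 1129 genes were called (724 higher and 405 lower), 63 under saline and 2094 for the interaction. With no read counts, precision for genes near 1 FPKM cannot be stated, and 5 mice a group limit the rest.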

Other observations

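Further groups of genes separated the Ang II genotypes to differing degrees. Complement genes went both ways. The receptors *C3ar1* (2.65) and *C5ar1* (2.64) and the recognition chain *C1qb* (2.22) were called higher, with 6 of 18 in all. *C7*, a part of the membrane attack complex, was the 1 called lower, at 7.99, 39.9, 13.4, 15.9 and 29.3 FPKM in *Plod1-/-* and 99.2, 49.1, 69.9, 118 and 48.7 FPKM in WT mice (log2 fold change −1.92, SE 0.41, limma adjusted p = 0.00768), with no overlap. Of the cathepsins and serine elastases 5 of 15 were called higher. *Ctsk*, cathepsin K, a collagenase and elastase, was at 53.3, 49.2, 69.0, 75.2 and 135 against 31.1, 12.8, 12.5, 20.2 and 14.99 FPKM (log2 fold change 1.99, SE 0.31, limma adjusted p = 0.00223) and did not overlap, whereas *Ctsf* was called lower at 16.4, 44.4, 17.6, 19.4 and 25.4 against 47.7, 67.2, 57.4, 56.01 and 59.01 FPKM (log2 fold change −1.28, SE 0.24, limma adjusted p = 0.00505). Of the glycolysis and hypoxia-linked genes 6 were called higher and 2 lower of 30. *Hif1a*, the oxygen-regulated factor, was at 21.1, 16.5, 36.1, 31.6 and 36.2 against 9.51, 6.44, 7.95, 11.5 and 7.61 FPKM (log2 fold change 1.57, SE 0.23, limma adjusted p = 0.00193), and *Slc16a3*, a lactate exporter, at 16.96, 14.4, 29.8, 16.9 and 18.6 against 5.96, 4.89, 4.66, 5.96 and 5.17 FPKM (log2 fold change 1.65, SE 0.18, limma adjusted p = 0.000585). *Pfkl*, the liver form of phosphofructokinase, was called lower (−1.53). Interferon-stimulated genes were called higher in 3 of 23, in each case with overlap, and *Plod1-/-* mouse 3 had the most *Isg15*, at 15.9, 4.71, 85.2, 12.02 and 27.9 FPKM in *Plod1-/-* mice 1 to 5 and 11.4, 3.80, 3.15, 3.18 and 5.78 FPKM in WT mice (log2 fold change 1.76, SE 0.62, limma adjusted p = 0.04996, lost in 8 of the 10 fits without 1 mouse, adjusted p up to 0.11 without WT mouse 3).

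Growth factors moved both ways. *Igf1*, which overlaps *Igf1os*, was at 10.8, 11.3, 17.6, 12.1 and 19.8 FPKM in *Plod1-/-* and 4.45, 1.86, 1.54, 2.34 and 3.88 FPKM in WT mice (log2 fold change 2.03, SE 0.25, limma adjusted p = 0.00104), and *Vegfb* was at 15.5, 17.2, 10.6, 12.1 and 17.99 against 20.9, 54.3, 35.7, 21.2 and 49.8 FPKM (log2 fold change −1.17, SE 0.28, limma adjusted p = 0.0124), neither with overlap. *H19*, an imprinted noncoding RNA abundant before birth, was at 40.7, 10.7, 26.7, 67.4 and 204 against 1.61, 0.957, 0.761, 0.867 and 4.49 FPKM (log2 fold change 4.19, SE 0.65, limma adjusted p = 0.00221), with *Plod1-/-* mouse 5 the highest. *Igf2*, its neighbour on the chromosome, was singled out after its values were seen and lay the other way, at 2.002, 1.41, 1.46, 1.24 and 2.50 against 3.10, 3.73, 3.54, 4.46 and 2.68 FPKM (−0.73, limma adjusted p = 0.00785, under the size limit). *Zfp469*, a gene of connective tissue whose loss in people thins the cornea, was at 5.47, 5.01, 7.58, 7.85 and 10.9 against 1.16, 1.05, 0.723, 1.32 and 0.735 FPKM (log2 fold change 2.03, SE 0.19, limma adjusted p = 0.000337) and differed by −0.01 under saline. *Eif4a1*, the helicase of translation initiation, was at 112, 111, 121, 111 and 102 against 63.4, 51.7, 47.2, 51.2 and 49.9 FPKM (log2 fold change 1.07, SE 0.12, limma adjusted p = 0.000702), with little spread in either group. *Inmt*, a methyltransferase found in stromal cells, was at 20.5, 40.4, 1.41, 6.91 and 20.2 against 66.3, 152, 117, 132 and 132 FPKM (log2 fold change −3.17, SE 0.64, limma adjusted p = 0.00654), lowest in *Plod1-/-* mouse 3. *Igkc*, the kappa chain of antibodies, did not pass under Ang II (−1.03, limma adjusted p = 0.331). Under saline it was at 21.6, 95.8, 80.7, 173 and 14.9 FPKM in *Plod1-/-* and 1.70, 1.81, 9.01, 2.38 and 1.55 FPKM in WT mice (3.91, limma adjusted p = 0.0122).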
